A study of Homo sapiens with 8 samples.

Results

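Catecholamine synthesis, storage, uptake and breakdown was followed through 9 genes in the human neuroblastoma line SH-SY5Y. The genes were TH, DDC, DBH and PNMT, which encode the enzymes of synthesis, GCH1 for their cofactor, SLC18A1 and SLC18A2 for storage, SLC6A2 for uptake and MAOA for breakdown. They were chosen by symbol, and each of the 9 symbols matched 1 of the 47591 genes of the table. The groups are 3 cell lines: G2, cut with CRISPR/Cas9 and a guide against the splicing factor gene PRPF40B, SCR (scramble), given a control guide, and WT, not edited. There were 3 libraries of G2, 3 of SCR and 2 of WT, each of polyadenylated RNA and named a biological replicate in its label. Edited cells were selected with puromycin and grown from single colonies, so G2 may be 1 clone, and the guide cannot be told apart from the line. G2 and SCR were also kept in puromycin during culture, which is not stated for WT, so in comparisons with WT the drug cannot be told apart from the line. Whether SCR came from a single colony is not stated, and no treatment is given in the labels of any group.

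Catecholamines are made from tyrosine. Tyrosine hydroxylase (TH) makes L-DOPA, DOPA decarboxylase (DDC) turns it into dopamine, dopamine beta-hydroxylase (DBH) makes noradrenaline and PNMT makes adrenaline. Vesicular transporters load the amines into granules, the noradrenaline transporter takes them back from outside the cell, and monoamine oxidases break them down. Neuroblastoma arises from the sympathoadrenal lineage, whose cells make noradrenaline.

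Values are normalized counts, that is a gene's read count divided by a size factor of its library, and means are given ± SD. Where 3 means follow each other they are those of G2 (n = 3), SCR (n = 3) and WT (n = 2). Recovered totals before normalization ran from 59804395 to 81080747 per library. Small counts were mostly multiples of 3, so 9 recovered counts, about 3 fragments, were taken as the floor of detection, which allows for counting error only. Ribosomal RNA took 4.75% to 4.96% of the counts in WT and 0.384% to 0.587% in the other libraries, and its part in the results was not tested beyond the scalings given. The targeted gene PRPF40B had 866 ± 44.5, 1676 ± 8.79 and 1820 ± 215, lower in G2 by limma (adjusted p = 7.4e-07 against SCR and 7.9e-07 against WT). A gene was called when limma, fitted to 18947 genes, gave an unadjusted p of no more than 0.05 and a difference of 1.5-fold or more. Adjusted p-values are Benjamini-Hochberg values over these genes.

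Genes of catecholamine synthesis, vesicular storage and uptake were lower in G2 than in SCR and WT, the breakdown enzyme MAOA passed no call, and SLC18A2 lay between SCR and WT. In G2/SCR 8 of the 9 genes were called lower and 0 higher, where 26.9% of all tested genes were called, 11.8% lower and 15.1% higher. In G2/WT 7 were called lower and 1 higher, where 29.9% of all tested genes were called, 12.2% lower and 17.7% higher. In SCR/WT 1 was called, SLC18A2, which was higher in SCR, where 16.3% of all tested genes were called, 5.63% lower and 10.7% higher. At an adjusted p of at most 0.05 the counts were 7, 8 and 1, beside 25%, 28.2% and 13.8% of all tested genes. The median log2 fold change of the 9 genes was -1.09 against SCR and -1.31 against WT, or -1.02 and -1.17 with TH set at its bound, and SCR differed from WT by -0.20. Over all tested genes the medians were -0.01, 0.0049 and 0.0099. All 9 genes passed the filter of a mean of at least 10, TH only through SCR and WT, so that it had to differ. Without TH, 7 of 8 genes were called lower in G2/SCR and 6 of 8 in G2/WT.

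For 6 genes, DDC, DBH, PNMT, GCH1, SLC18A1 and SLC6A2, every G2 library lay below every control library, as it did for 19.7% of all tested genes, and 42.5% had the G2 libraries outside the controls on either side. For TH and MAOA a G2 library overlapped a control, and for SLC18A2 the G2 libraries lay between SCR and WT without overlap. TH and the 6 genes were called lower in both G2 comparisons, as were 6.43% of all tested genes, and were not called in SCR/WT, a pattern of 5.63%. Both comparisons use the same 3 G2 libraries and are not independent.

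**Figure D1:**
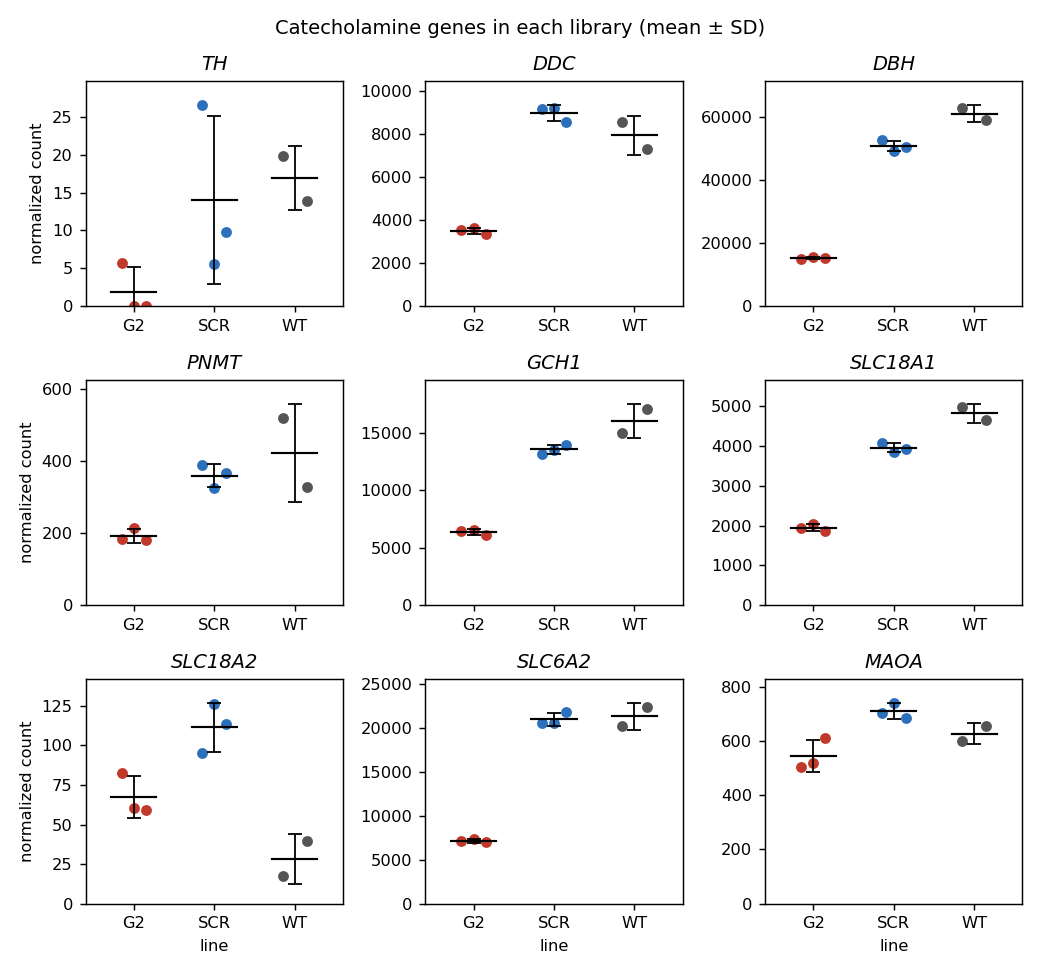
Normalized counts of the 9 genes on linear axes from 0, with a point for each library of G2, SCR and WT, a line at the mean and a bar for the SD (the bar of TH in G2 is cut at 0). In 6 panels the G2 points lie below all control points, in SLC18A2 they lie between SCR and WT, and in TH and MAOA they overlap a control.

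DBH, the enzyme that makes noradrenaline inside the granule, had the highest level per kilobase of the 9 genes. It had 14907, 15601 and 15194 normalized counts in G2 replicates 1 to 3, 52715, 49293 and 50708 in SCR, and 63064 and 59225 in WT. The lines did not overlap, with G2 lowest and WT highest. The means were 15234 ± 349, 50905 ± 1719 and 61145 ± 2715, 3.34-fold lower in G2 than in SCR and 4.01-fold lower than in WT. On the log2 scale DBH differed by -1.74 from SCR (SE 0.05, adjusted p = 9.6e-11) and by -2.00 from WT (SE 0.06, adjusted p = 6.9e-11). SCR was below WT by less than the fold threshold, at -0.26 on the log2 scale (adjusted p = 0.00309), a sign that turned to 0.012 when all libraries were brought to the same total.

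DBH (GSHG0043924) lies on the plus strand of chromosome 9 of hg38, from 133636363 to 133659344, with 12 exons in its canonical transcript. RefSeq promoter windows were available for 4 of the 9 genes, and none was for TH, PNMT, GCH1, SLC18A1 and SLC6A2. DBH is the most abundant of the 9 transcripts, and the window before it (chr9:133636113-133636362, plus strand, GRCh38.p14) is shown for this reason. Capitals mark a TGACG, the first letters of the cyclic AMP response element, and 2 copies of ATTAG, a core read by homeodomain proteins such as PHOX2A.
DBH promoter: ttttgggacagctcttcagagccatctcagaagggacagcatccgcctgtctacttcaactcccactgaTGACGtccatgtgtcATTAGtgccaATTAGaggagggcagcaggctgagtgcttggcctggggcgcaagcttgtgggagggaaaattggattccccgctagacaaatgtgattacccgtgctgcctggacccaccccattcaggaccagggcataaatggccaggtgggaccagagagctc
The TGACG lies 181 to 177 bases before the start, and the ATTAG copies lie 166 to 162 and 156 to 152 bases before it. Both strands were searched. Of 35116 RefSeq windows, 21.22% hold TGACG and 19.4% hold ATTAG, so such matches are common and are given as a description.

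DDC, the decarboxylase that makes dopamine, had 3552, 3621 and 3367 normalized counts in G2, 9189, 9210 and 8561 in SCR, and 8582 and 7314 in WT. Every G2 library was below every control, while WT replicate 1 fell within the SCR range. The means were 3513 ± 132, 8987 ± 369 and 7948 ± 897. DDC was thus 2.56-fold lower than in SCR (log2 fold change -1.35, SE 0.07, adjusted p = 8.6e-09) and 2.26-fold lower than in WT (-1.17, SE 0.07, adjusted p = 9.3e-08). It lies on the minus strand of chromosome 7, from 50458436 to 50565457 (GSHG0040526), and has 2 RefSeq starts. The windows before the first start (chr7:50565458-50565655, minus strand, with the 52 bases nearest the start left out because they lie in a gene model) and before the second start (chr7:50561072-50561321, minus strand) are shown for comparison with DBH.
DDC promoter, first start: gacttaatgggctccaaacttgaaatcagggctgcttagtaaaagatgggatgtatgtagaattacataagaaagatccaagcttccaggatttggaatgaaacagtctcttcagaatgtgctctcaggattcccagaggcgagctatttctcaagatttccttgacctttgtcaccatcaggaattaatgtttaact
DDC promoter, second start: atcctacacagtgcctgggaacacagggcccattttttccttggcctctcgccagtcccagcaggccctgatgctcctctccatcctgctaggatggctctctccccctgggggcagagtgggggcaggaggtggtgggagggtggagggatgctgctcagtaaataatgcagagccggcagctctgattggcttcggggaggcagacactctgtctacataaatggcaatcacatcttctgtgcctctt
Neither window holds a match to any of the 7 motifs, which were searched on both strands of all windows. The full cyclic AMP response element, TGACGTCA, is held by 1.65% of the windows and its part named above by 21.22%. The homeodomain core is held by 19.4% and a paired homeodomain site by 0.33%. The GATA factor motif AGATAAG is held by 2.36% of the windows. The EGR1 motif GCGNGGGCG is held by 8.41% of them and the AP-1 motif TGANTCA by 6.57%.

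PNMT, which methylates noradrenaline to adrenaline, had a far lower level per kilobase. It had 183, 215 and 179 normalized counts in G2, 389, 325 and 366 in SCR, and 519 and 327 in WT. G2 was below all controls, and WT replicate 1 lay above the SCR range. The means of 193 ± 19.2, 360 ± 32.5 and 423 ± 136 gave a 1.87-fold lower level than in SCR (log2 fold change -0.90, SE 0.16, adjusted p = 5.9e-04). Against WT it was 2.20-fold lower (-1.10, SE 0.18, adjusted p = 2.8e-04), and this value depended on the WT library, at -0.76 without WT replicate 1 and -1.43 without WT replicate 2. PNMT (GSHG0018164) lies on the plus strand of chromosome 17, from 39668019 to 39670475.

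TH, the rate-limiting enzyme of the pathway and a defining gene of noradrenergic cells, was close to the floor in all 3 lines. It had 5.65, 0 and 0 normalized counts in G2, 26.5, 5.63 and 9.82 in SCR, and 19.9 and 13.9 in WT. G2 replicate 1 overlapped SCR replicate 2, and no G2 library exceeded the floor. TH in G2 was at least 1.5-fold below SCR and at least 1.81-fold below WT, with G2 set at 9 recovered counts in each library. The fitted log2 fold changes, -2.74 in G2/SCR (SE 0.94, adjusted p = 0.0303) and -3.23 in G2/WT (SE 1.06, adjusted p = 0.0222), depend on the pseudocount. The call in G2/SCR rested on SCR replicate 1, without which the log2 fold change was -2.17 (unadjusted p = 0.0771). The call in G2/WT rested on WT replicate 1, without which it was -2.99 (unadjusted p = 0.0598). TH (GSHG0006963) lies on the minus strand of chromosome 11, from 2163929 to 2171877. A bulk library cannot tell fewer expressing cells from less RNA per cell, for TH or for any other gene here.

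GCH1, GTP cyclohydrolase, starts the synthesis of tetrahydrobiopterin, the cofactor that tyrosine hydroxylase needs. Its normalized counts were 6468, 6582 and 6116 in G2, 13223, 13537 and 13996 in SCR, and 15040 and 17120 in WT. The lines did not overlap. Means of 6389 ± 243, 13585 ± 389 and 16080 ± 1471 put G2 2.13-fold below SCR (log2 fold change -1.09, SE 0.06, adjusted p = 2.1e-08) and 2.52-fold below WT (-1.33, SE 0.07, adjusted p = 1.1e-08). GCH1 (GSHG0012897) lies on the minus strand of chromosome 14, from 54842016 to 54902826.

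The other 8 genes of tetrahydrobiopterin synthesis and recycling were mostly not called. All 8 were tested, and 1 was called lower in G2/SCR and 3 in G2/WT, with 0 higher and medians of -0.23 and -0.46 on the log2 scale. Of all tested genes 11.8% and 12.2% were called lower in these comparisons. PCBD1, a recycling dehydratase, had 7490 ± 315, 9055 ± 62.8 and 11464 ± 890, and was called lower against WT only (-0.61). That call was lost when libraries were brought to the same total. CBR1, a carbonyl reductase, was not called, with log2 fold changes of -0.08 and -0.35. The gene called in both comparisons was GCHFR, the feedback regulator of GTP cyclohydrolase, named here after its values were seen. It was listed at 0 in G2 replicates 2 and 3 and at 19.8 in replicate 1, against 27.6, 70.4 and 97.5 in SCR and 63.3 and 41.7 in WT. Like TH, it passed the filter of a mean of at least 10 only through SCR and WT, with a G2 mean of 6.59, so that it had to differ.

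The 2 vesicular monoamine transporters differed from each other. SLC18A1, the form typical of endocrine cells, had 1943, 2032 and 1869 normalized counts in G2, 4088, 3863 and 3932 in SCR, and 4994 and 4660 in WT. The lines did not overlap, with G2 lowest. The means were 1948 ± 81.9, 3961 ± 116 and 4827 ± 236. SLC18A1 was 2.03-fold lower than in SCR (log2 fold change -1.02, SE 0.06, adjusted p = 3.6e-08) and 2.48-fold lower than in WT (-1.31, SE 0.07, adjusted p = 1.2e-08). It (GSHG0042167) lies on the minus strand of chromosome 8, from 20144855 to 20183206.

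SLC18A2, the form typical of neurons, had 82.8, 60.2 and 59.1 normalized counts in G2, 94.9, 126 and 113 in SCR, and 17.4 and 39.7 in WT. The 3 ranges did not overlap, with G2 between SCR and WT. Means were 67.4 ± 13.4, 111 ± 15.5 and 28.5 ± 15.8. SCR was 3.90-fold higher than WT (log2 fold change 2.03, SE 0.33, adjusted p = 5.7e-04), and the value ran from 1.45 without WT replicate 1 to 2.6 without WT replicate 2. G2 was 2.36-fold higher than WT (1.30, SE 0.33, adjusted p = 0.0051), from 0.73 without WT replicate 1 to 1.88 without WT replicate 2. The 1.65-fold lower level in G2 than in SCR (-0.72, SE 0.29) passed at an unadjusted p = 0.0291 and not after adjustment (adjusted p = 0.0578). That call was also lost without G2 replicate 2 (-0.65), G2 replicate 3 (-0.64), SCR replicate 2 (-0.63) or SCR replicate 3 (-0.71). Within a library, SLC18A1 had 23.5 to 33.7 times the counts of SLC18A2 in G2, 30.7 to 43.1 times in SCR and 117 to 287 times in WT, a ratio not scaled to length and chosen after the values were seen.

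SLC18A2 (GSHG0004519) lies on the plus strand of chromosome 10, from 117241089 to 117279430. PDZD8, on the opposite strand, overlaps its end by 2157 bases and had more counts in every line, 1564 ± 55.8, 1344 ± 95 and 1141 ± 153, and the strand setting of the counting is not given in the sources used here. The RefSeq window before SLC18A2 (chr10:117240864-117241088, plus strand, without the 25 bases nearest the start) is shown because this gene departs from DBH. Capitals mark, in order, GCGCGGGCG and CGCCCCCGC, matches to GCGNGGGCG on either strand, and a full TGACGTCA.
SLC18A2 promoter: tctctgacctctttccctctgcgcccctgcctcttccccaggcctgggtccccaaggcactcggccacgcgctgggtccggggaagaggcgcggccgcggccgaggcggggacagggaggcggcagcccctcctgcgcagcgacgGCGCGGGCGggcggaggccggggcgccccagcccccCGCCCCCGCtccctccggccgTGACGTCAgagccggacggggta
They lie 105 to 97, 69 to 61 and 48 to 41 bases before the start. The full TGACGTCA is held by 1.65% of all windows and contains TGACG on both strands. The window before MAOA lies in an exon of the annotation and is not shown.

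SLC6A2, the noradrenaline transporter, had 7151, 7375 and 6992 normalized counts in G2, 20597, 20569 and 21861 in SCR, and 20302 and 22470 in WT. The WT libraries bracketed the SCR range, and G2 lay far below both. The means were 7173 ± 192, 21009 ± 738 and 21386 ± 1533. SLC6A2 was 2.93-fold lower than in SCR (log2 fold change -1.55, SE 0.05, adjusted p = 4.8e-10) and 2.98-fold lower than in WT (-1.57, SE 0.06, adjusted p = 1.2e-09). It (GSHG0016482) lies on the plus strand of chromosome 16, from 55655988 to 55706192.

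Of 7 other transporters that carry monoamines, 2 were tested. SLC29A4, a plasma membrane monoamine transporter, had 2192 ± 212, 3451 ± 213 and 3472 ± 501, and was called lower in both comparisons (-0.66 and -0.66). Its call against WT was lost when libraries were brought to the same total. The dopamine transporter SLC6A3, named after its values were seen, was at or below 4.97 in every library, and the serotonin transporter SLC6A4 at or below 8.45. SLC22A2, SLC22A3 and SLC18B1 were listed at 0 in every library.

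MAOA, a mitochondrial monoamine oxidase that prefers noradrenaline and serotonin, had 502, 518 and 611 normalized counts in G2, 702, 740 and 683 in SCR, and 600 and 653 in WT. G2 replicate 3 overlapped WT, while all G2 libraries were below SCR. The means were 544 ± 59.0, 709 ± 29.2 and 627 ± 37.9. The difference from SCR was 1.30-fold, under the fold threshold (log2 fold change -0.39, SE 0.09, adjusted p = 0.00495). The difference from WT was -0.21 (95% interval -0.44 to 0.02, adjusted p = 0.121). MAOA (GSHG0045658) lies on the plus strand of chromosome X, from 43654905 to 43746817.

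Of all tested genes 11.3% were called higher and 6.43% lower in both G2 comparisons. Of 8 other genes of amine breakdown, all tested, 2 were called higher and 0 lower in both, with medians of 0.17 and -0.12. MAOB, the sister oxidase on the same chromosome, was among them and was named after its values were seen. It had 843, 804 and 816 normalized counts in G2, 182, 162 and 182 in SCR, and 122 and 121 in WT. It rose by 2.22 on the log2 scale against SCR (SE 0.10, adjusted p = 4.8e-09) and by 2.75 against WT (SE 0.11, adjusted p = 2.3e-09). Every G2 library lay above every control. AKR1B1, an aldose reductase, and ALDH9A1, an aldehyde dehydrogenase, were not called, with 0.03 and 0.19 against SCR and -0.25 and -0.08 against WT.

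The ratio of the oxidases differed between lines. The counts of MAOB were 1.33 to 1.68 times those of MAOA in G2, 0.219 to 0.267 times in SCR and 0.185 to 0.203 times in WT. The mean ratio was in G2 6.13-fold that of SCR and 7.84-fold that of WT. Per kilobase of canonical transcript, MAOB had 319 ± 7.85 in G2 beside 138 ± 15 for MAOA. In SCR MAOA had 180 ± 7.42 and MAOB 68.2 ± 4.39, and in WT 159 ± 9.64 and 47.2 ± 0.152. With the length of all exons, MAOA and MAOB had means of 41.8 and 284 in G2, 54.5 and 60.6 in SCR, and 48.2 and 41.9 in WT. Which oxidase was higher in SCR thus depended on the length used. The ratio of DBH to MAOA was 24.9 to 30.1 in G2, 66.6 to 75.1 in SCR and 90.7 to 105 in WT. These ratios do not depend on the size factors and were chosen after the values were seen, so no test is given.

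**Figure D2:**
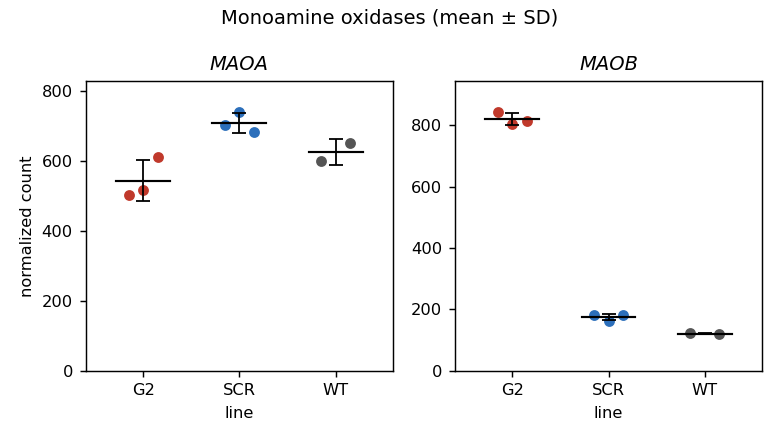
Normalized counts of MAOA and MAOB on linear axes from 0, with a point for each library, a line at the mean and a bar for the SD. The G2 points of MAOB, 804 to 843, lie above all controls, while those of MAOA overlap WT.

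With the 3 G2 libraries set against the 5 controls, an exact two-sided permutation test over 56 groupings gave p = 0.018 for DDC, DBH, PNMT, GCH1, SLC18A1 and SLC6A2, the smallest value this design allows. These are the genes in which every G2 library lay below every control, so the p-value only restates that separation. Of all tested genes 42.5% had the G2 libraries outside the controls on either side. The same exact test gave p = 0.036 for MAOA and p = 0.946 for SLC18A2, and the p-values are not adjusted. None is given for TH, which passed the filter only through the control lines. Among the 7 genes called lower in both G2 comparisons, the size of the fall was not uniform. The ratio of DBH to GCH1 was 2.30 to 2.48 in G2, 3.62 to 3.99 in SCR and 3.46 to 4.19 in WT. The ratio of DBH to SLC6A2 was 2.08 to 2.17 in G2, 2.32 to 2.56 in SCR and 2.64 to 3.11 in WT, so DBH was lower in G2 also relative to these genes.

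**Figure D3:**
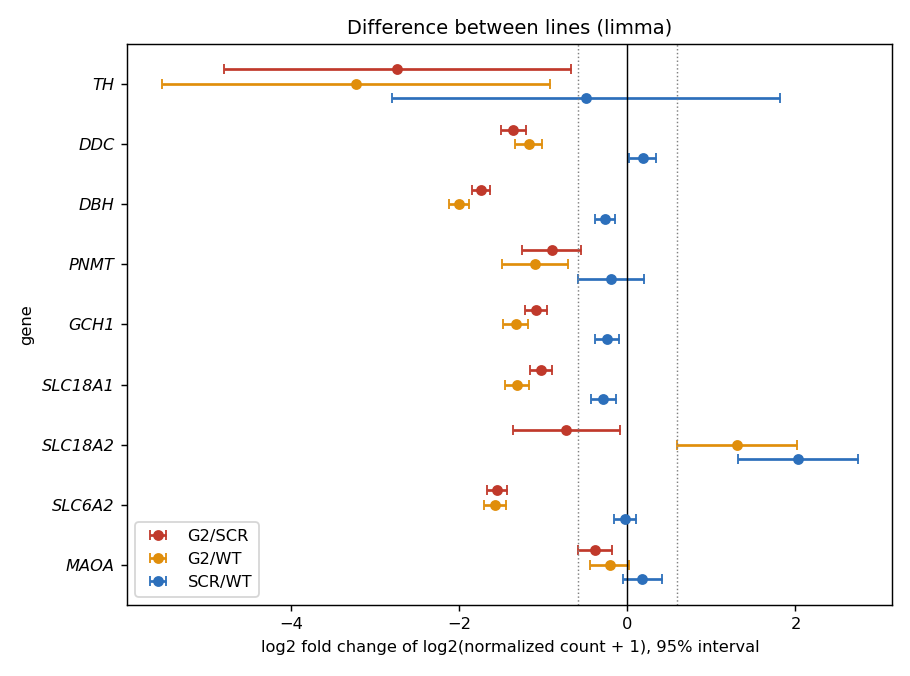
Log2 fold changes of the 9 genes in G2/SCR, G2/WT and SCR/WT with 95% intervals from limma, on log2(normalized count + 1), with dotted lines at a fold of 1.5 in each direction. DDC, DBH, PNMT, GCH1, SLC18A1 and SLC6A2 lie left of the dotted line in both G2 comparisons, SLC18A2 lies right of it in both comparisons with WT, and the intervals of TH are the widest.

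Levels of different genes were compared per kilobase of the canonical transcript. In G2, DBH had 5550 ± 127, GCH1 2191 ± 83.2, DDC 1746 ± 65.4 and SLC6A2 1209 ± 32.4. SLC18A1 followed with 726 ± 30.5, PNMT with 201 ± 20.1, MAOA with 138 ± 15, SLC18A2 with 17.6 ± 3.49 and TH with 1.03 ± 1.78. The order of means was the same in SCR, from 18545 ± 626 for DBH to 7.66 ± 6.05 for TH. In WT it ran from 22275 ± 989 for DBH, and only TH (9.24 ± 2.31) and SLC18A2 (7.45 ± 4.12) changed places, with ranges that overlap, and did not when the length of all exons was used.

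Some neighbours in this order could not be separated. In SCR, GCH1 ran from 4535 to 4800 and DDC from 4255 to 4578. In WT, DDC ran from 3635 to 4266 and SLC6A2 from 3422 to 3787, and these changed places with the length of all exons. In the other neighbouring pairs the ranges of the libraries did not overlap. TH was thus the lowest of the 4 synthesis genes by far in every line, while DBH was the highest.

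**Figure D4:**
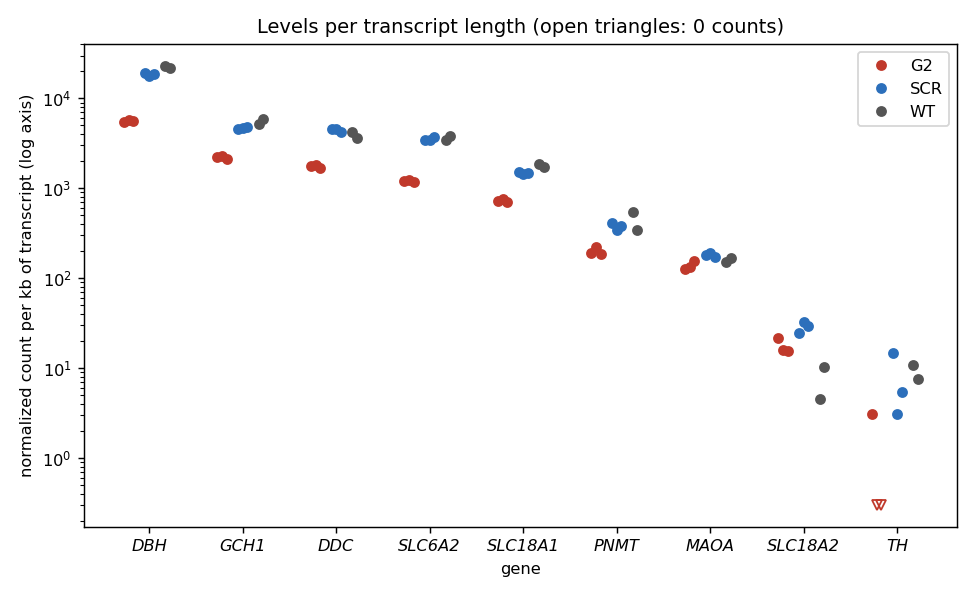
Normalized counts per kilobase of canonical transcript on a log axis, with a point for each library of G2, SCR and WT and open triangles, placed at the bottom, for libraries at 0. DBH is highest in all 3 lines and TH and SLC18A2 are lowest.

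Around DBH, the transcripts FAM163B and GSHG0043925 were also lower in G2, while DBH-AS1 was higher. FAM163B was named because its values over the 8 libraries were the nearest to those of DBH, so that it had to differ in the same way. Its p-values are therefore not separate evidence. FAM163B lies before DBH on the opposite strand, from 133577081 to 133609389 on chromosome 9, with 26974 bases and no other gene of the table between them. It had 709 ± 49.8 normalized counts in G2, 2515 ± 81.8 in SCR and 2753 ± 244 in WT. On the log2 scale it differed by -1.83 from SCR (SE 0.08, adjusted p = 1.9e-09) and by -1.96 from WT (SE 0.08, adjusted p = 3.1e-09). A gene without a symbol, GSHG0043925, starts 2529 bases after DBH, from 133661873 to 133664778, and was named after its values were seen. It had 86.6, 79.9 and 78.4 in G2, 483, 463 and 520 in SCR, and 485 and 495 in WT, 5.98-fold lower than in SCR (adjusted p = 2.3e-09) and 6.01-fold lower than in WT (adjusted p = 6.5e-09).

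DBH-AS1, an antisense transcript whose locus overlaps DBH by 3354 bases, went the other way. It had 213, 204 and 210 normalized counts in G2, 59.2, 44.1 and 62.7 in SCR, and 102 and 71.5 in WT, with no overlap between lines. It rose by 1.91 on the log2 scale against SCR (SE 0.19, adjusted p = 5.6e-06) and by 1.28 against WT (SE 0.22, adjusted p = 3.6e-04). DBH has far more counts than DBH-AS1, and without the strand setting reads from either strand cannot be told apart. DDC-AS1 was at or below 8.94 in every library.

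**Figure D5:**
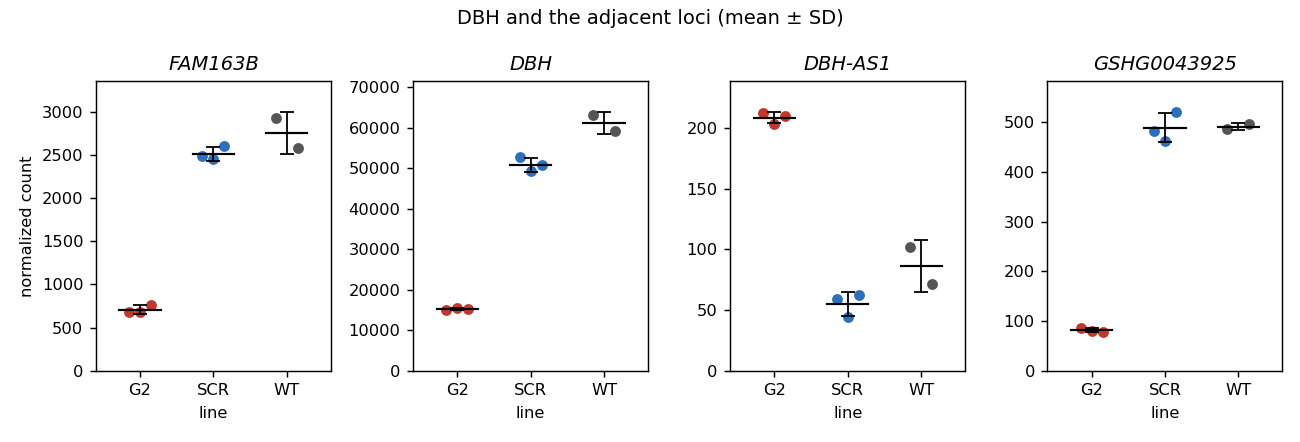
Normalized counts of FAM163B, DBH, DBH-AS1 and GSHG0043925 on linear axes from 0, with a point for each library, a line at the mean and a bar for the SD. G2 lies below all controls in FAM163B, DBH and GSHG0043925 and above them in DBH-AS1.

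Among the 40 tested genes around DBH with a mean of at least 100, 7 were called lower in G2/SCR and the median log2 fold change was -0.22. Of all 18947 tested genes, without that limit on the mean, 11.8% were called lower. Around the other 8 genes the same median ran from 3.66e-05 (PNMT) to 0.19 (GCH1), with 0 (DDC) to 7 (SLC6A2) neighbours called lower. DBH was thus the gene with the lowest neighbour median, while SLC6A2 had as many neighbours called lower with a median of 0.08. Whether the region around DBH differed as a whole was not tested.

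The genes most like each of the 7 were found by the distance of their centred log2 values over the 8 libraries, among 12581 genes with a symbol and a mean of at least 100. FAM163B was nearest to DBH (distance 0.245), followed by NEFH, the heavy neurofilament (0.315). KIZ (0.166) and CRMP1 (0.216) were nearest to DDC, FAIM2 (0.267) and PARD6A (0.291) to PNMT, and GPRIN1 (0.161) and HERC5 (0.191) to GCH1. STK32C (0.135) and GPRIN1 (0.152) were nearest to SLC18A1, and RAB3C (0.209) and GNG4 (0.243) to SLC6A2. The distances for TH were larger, 2.32 to SCGN and 2.55 to PLCH2. Among the 9 genes themselves, GCH1 and SLC18A1 were closest to each other (0.244), and DBH was closer to SLC6A2 (0.513) than to DDC (0.927).

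Of 9 proteins that share the chromaffin granule with the amines, 7 were tested. In G2/SCR 5 were called lower and 1 higher (median -0.90), and in G2/WT 4 lower and 2 higher (median -1.37). Of all tested genes, 11.8% were called lower and 15.1% higher in G2/SCR, and 12.2% and 17.7% in G2/WT. SV2C, named after its values were seen, was called lower against SCR (-1.31) and not against WT (-0.10). It was called higher in SCR than in WT (1.21). CHGA, chromogranin A, had 3101 ± 254, 26130 ± 1788 and 33445 ± 3041, with log2 fold changes of -3.08 and -3.43 (adjusted p = 3.3e-11 and 2.9e-11). CYB561, the cytochrome that regenerates ascorbate for DBH, had 9329 ± 933, 17379 ± 648 and 24106 ± 1704, with -0.90 and -1.37 (adjusted p = 6.7e-07 and 4.6e-08). CHGB, chromogranin B, fell by 0.87 and 1.56 on the log2 scale, and was also called lower in SCR than in WT (-0.69), a call lost when libraries were brought to the same total (-0.41). The gene called higher in both was PAM, a peptide-amidating enzyme named after its values were seen, with 28187 ± 384, 3943 ± 67.9 and 5781 ± 263. SCG2, a secretogranin, was listed at 0 in every library, and its level cannot be read from a listed 0.

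Of 10 transcription factors of noradrenergic cells, 9 were tested. In G2/SCR 6 were called lower and 1 higher (median -0.76), and in G2/WT also 6 lower and 1 higher (median -0.65), or 4 lower with libraries brought to the same total. Of all tested genes 11.8% and 12.2% were called lower in these comparisons, and 15.1% and 17.7% higher. HAND2 had 33678 ± 2130, 52490 ± 1737 and 50733 ± 2251 (-0.64 and -0.59), and its call against WT was lost under each other scaling. GATA2 had 12949 ± 626, 22607 ± 1150 and 26491 ± 856, with -0.80 and -1.03. PHOX2A was called against SCR (-0.76) and not against WT (-0.49). The gene called higher in both was TBX2 (1.08 and 1.55), named after its values were seen. SH-SY5Y thus held these markers in all 3 lines, with a summed level of 94557 to 105823 in G2, 133739 to 145368 in SCR and 133956 to 139103 in WT, while TH was near the floor and INSM1 at or below 11.3.

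Regulators known to act on the TH or PNMT genes were mostly higher, with 5 of 7 tested genes called higher against SCR, 4 against WT and 0 lower (medians 0.74 and 1.01). Among all tested genes 15.1% and 17.7% were called higher. EGR1, an immediate early factor, had 4743 ± 77.1, 730 ± 36.5 and 493 ± 65.1, with 2.7 and 3.27 (adjusted p = 1.4e-10 and 6.7e-11). SP1 was called higher against SCR only (0.73 and 0.38). JUN was not called (0.31 and 0.58), although its value against WT passed under each other scaling.

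Of 15 adrenergic, dopamine and trace amine receptor genes, 6 were tested. In G2/SCR 1 was called lower and 1 higher (median 0.04), and in G2/WT 1 lower and 2 higher (median 0.69, or 0.35 with genes at the floor set at their bound). Of all tested genes 11.8% and 12.2% were called lower in these comparisons, and 15.1% and 17.7% higher. ADRA2A, an inhibitory receptor for noradrenaline, had 1149 ± 54.7, 107 ± 24 and 75.2 ± 4.54, with 3.44 and 3.91 (adjusted p = 5.2e-09 and 5.0e-09). DRD2, a dopamine receptor, had 282 ± 21.1, 661 ± 22.1 and 1222 ± 165, with -1.23 and -2.11, and was also lower in SCR than in WT (-0.88). ADRA2C was not called (-0.09 and -0.17).

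Markers of the mesenchymal state of neuroblastoma moved with the same libraries. Of 10 genes 9 were tested, and 8 were called higher and 0 lower in both G2 comparisons (medians 1.33 and 2.63, or 1.86 with genes at the floor set at their bound). Of all tested genes 11.3% were called higher in both. VIM, vimentin, had 214430 ± 2310, 85197 ± 2866 and 59180 ± 6502. NOTCH2 was called higher in both (0.89 and 0.90), and TWIST1 was not called (-0.39 and -0.34). In SCR/WT 3 of the 9 were also called higher, YAP1 (2.83), FOSL1 (2.13) and CD44 (1.09), named after their values were seen. The summed level was 240284 to 245301 in G2, 111617 to 118857 in SCR and 81620 to 93493 in WT, mostly VIM. Of the defining genes, PRRX1 had 20.7, 48.2 and 22.6 in G2 and was listed at 0 in all controls, and FN1 was at or below 2.27 in every library. PRRX1, 1 of the 8 called higher, passed the filter of a mean of at least 10 only through G2, so that it had to differ. The part of these markers in the values of the catecholamine genes was not tested.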

How the data were processed

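Polyadenylated RNA of 8 SH-SY5Y libraries was sequenced. The authors mapped reads to hg38 with STAR 2.7.5a, counted them on FAST DB genes with featureCounts (Subread 1.5.0) and normalized with DESeq2. The signal they deposited is this normalized count per gene and library, without length scaling. Treatment of strand and multi-mapped reads is not given in the sources used here. Dividing by the step of each library gave whole counts for 100.00% of values (tolerance 0.01), although WT replicate 2 could not be checked, its step lying too near 1.

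Groups came from the labels. All 8 libraries entered 1 limma fit (3.58.1, R 4.3.3, trend on the mean) of log2(value + 1) for 18947 genes (mean 10 or more), with Benjamini-Hochberg adjustment over all of them. A pseudocount understates changes of weak genes. edgeR 4.0.16 and DESeq2 1.42.0 on recovered counts of G2/SCR, other scalings, filters, pseudocounts and left-out libraries were alternatives. P-values measure the spread between these libraries.

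The members and lists were chosen with earlier results of these data known. Named genes are the 9 members, PRPF40B, the 3 genes of each list with the largest mean, loci that overlap a member, and the 2 nearest genes of each member called the same way in both G2 comparisons. The rest are marked as chosen after their values were seen. A few genes that this rule names are not reported here. Transcript lengths are from GENCODE 44 and promoters from RefSeq (GRCh38.p14).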

Additional observations from a re-analysis of the deposited data

How the results depend on the processing

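Of 627 recomputed values over 22 alternatives, 10 kept the direction and lost the call and 8 changed sign. Among the remaining values, the fold changes kept their direction and side of the threshold, and the counts of genes stayed within 1.5 times except 1. Called members numbered 6 to 8 in both G2 comparisons, the lowest values with a mean of at least 100 (6 of 7 tested) and, in G2/SCR, also at a fold of at least 2. The sign changes were all in SCR/WT among differences that were not called. With libraries brought to the same total, DBH was at 0.012, GCH1 at 0.036, PNMT at 0.078 and SLC6A2 at 0.25, and with ribosomal RNA genes also left out (chosen after seeing the data) PNMT was at 0.013 and SLC6A2 at 0.19. With each library left out, PNMT ran from -0.53 to 0.14 (without WT replicate 1) and SLC6A2 from -0.098 to 0.049 (without WT replicate 2). The same-total scaling put the median of all tested genes at -0.10, 0.19 and 0.28 in G2/SCR, G2/WT and SCR/WT, from -0.01, 0.0049 and 0.0099. With a mean of at least 100 required, SLC18A2 and TH were not tested and 0 of the remaining 7 genes were called in SCR/WT. At a fold of at least 2, PRPF40B (-0.95), PNMT (-0.90) and SLC18A2 (-0.72) were not called in G2/SCR. Calls among all genes then fell to 2951, 3176 and 1491, and with a mean of at least 100 to 3088, 3633 and 1723, from 5088, 5657 and 3097. Without either WT library the remaining one was assumed to vary like the other lines. TH in G2/SCR ran from -3.37 with a pseudocount of 0.5 to -0.95 with 10. Libraries with the same replicate number did not deviate together (correlations from -0.173 to 0.147). A replicate block gave 8, 8 and 1 called members and 5059, 5644 and 3057 calls among all genes, and changed no call of a member. Counts of genes near the floor, such as TH and GCHFR, limit what can be said of them at this depth.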

Other observations

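Markers of other transmitter types were measured in the same libraries. Of 4 cholinergic genes 3 were tested. SLC18A3, the vesicular acetylcholine transporter, was called lower in G2 (-0.78 against SCR and -1.10 against WT on the log2 scale), and ACHE, acetylcholinesterase, was called higher (1.38 and 1.69). CHAT, the enzyme that makes acetylcholine, had 18.3 to 38.3 normalized counts in G2, 5.29 to 13.1 in SCR and 8.94 to 26.1 in WT, and was called higher against SCR only. The SLC18A3 locus lies within that of CHAT on chromosome 10, with means of 1458 and 17.2 over the 8 libraries. How reads in the shared stretch were counted is not given in the sources used here. Of 6 glutamate and GABA genes 4 were tested, with 3 called higher and 1 lower in both G2 comparisons. GAD1, which makes GABA, had 208 ± 33.9, 18.6 ± 4.68 and 9.56 ± 4.74 (SD; n = 3, 3 and 2) in G2, SCR and WT, while SLC32A1, the vesicular GABA transporter, was called lower (-1.41 and -1.34). SLC17A7, a vesicular glutamate transporter, was called higher (1.38 and 2.05).

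The serotonergic genes were low. TPH1 had 8.6 to 25.2 in G2, 6.57 to 28 in SCR and 31 to 40.7 in WT, and was not called. TPH2 was at or below 7.45, and FEV was listed at 0. Of 9 Schwann cell and melanocyte genes 5 were tested, with 1 called lower and 1 higher in both G2 comparisons. S100B had 119 to 197 in G2, 362 to 571 in SCR and 415 to 429 in WT, and was called lower, while MITF and DCT were not called. SOX10 and TYR, which define these cells, were listed at 0 in every library.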
